A study of Mus musculus with 16 samples.

Results

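The contact profile of Sox2 was taken from chromosome conformation capture carbon copy (5C) counts of mouse cells. The viewpoint was the 16 kb window of mm9 chromosome 3 that holds the gene, covered by HindIII fragments from 34541861 to 34558024. A pair of fragments of the Sox2 locus, 1 with a forward and 1 with a reverse primer, was a member when the midpoint of at least 1 of them lay in that window. In the 6 libraries of untreated cells this gave 631 fragment pairs, of 17265 in the Sox2 locus and 91509 in all 7 loci. In the 4 libraries of siRNA-treated cells it gave 519, of 17160 in the Sox2 locus and 32660 in all. Summed over 16 kb windows, the members made 61 pairs of the Sox2 window with another of the 62 windows of the locus, which spans 34108880 to 35104879. Distances between windows are given from start to start.

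SOX2 is an HMG-box transcription factor that keeps embryonic stem (ES) cells pluripotent and is also a defining factor of neural progenitor cells (NPCs), so the gene is active in both cell types. In ES cells its transcription depends on a distal enhancer region that lies downstream of the gene, while neural expression has been tied to other elements. Enhancers and promoters can meet by chromatin looping. CTCF, a zinc-finger DNA-binding protein, anchors many loops together with cohesin, and YY1, another zinc-finger protein, has been described at enhancer-promoter contacts. In 5C, cross-linked chromatin is cut with HindIII and ligated, and each ligation junction is counted with a forward primer on one fragment and a reverse primer on the other.

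The sequence of the viewpoint's promoter is shown because every count below is a ligation of a fragment of the window around it. It comes from RefSeq on GRCm38.p6, another build than that of the 5C coordinates, and covers the 250 bases before the annotated start of Sox2 on the plus strand, chr3:34649745-34649994.
Sox2: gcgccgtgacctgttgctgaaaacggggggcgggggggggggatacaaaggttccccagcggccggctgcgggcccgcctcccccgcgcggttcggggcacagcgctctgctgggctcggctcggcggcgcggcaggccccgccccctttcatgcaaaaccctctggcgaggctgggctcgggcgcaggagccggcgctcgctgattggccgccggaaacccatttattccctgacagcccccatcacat

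The letters are all in lower case because none of the motifs searched on both strands occurred in it. These were the HindIII site AAGCTT, found in 6.22% of 32851 RefSeq promoter windows of the same length, the YY1 core GCCAT, found in 32.9% of them, and the CTCF core GGNGGCAG, found in 9.93%. With no HindIII site, these 250 bases are not split by the digestion in the reference sequence. In the RefSeq annotation of that build the long noncoding RNA gene Sox2ot overlaps Sox2. Fxr1 and Dnajc19 are the protein-coding genes next to Sox2 on the upstream side. No mm9 annotation was at hand, so the fragment that holds the promoter could not be named. The contacts below are those of the window's fragments and not of the promoter alone.

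ES cells were the male V6.5 line of 129SvJae x C57BL/6 background, grown in 2i with LIF or in serum with LIF and passaged on gelatin to remove feeder cells, with 2 libraries for each medium. NPCs came from whole brains of Sox2-eGFP mice of the same cross at postnatal day 1, were cultured as neurospheres and then plated at 60000 cells per square cm, again with 2 libraries. For the siRNA libraries such NPCs were plated at 20000 cells per square cm and given 20 nM siRNA for 78 h, with 2 libraries for siRNA against YY1 and 2 for control siRNA, and an in situ protocol was used. All NPCs carry the Sox2-eGFP allele and the ES cells do not, the labels do not say where that allele lies, and ES cells are a line while NPCs are primary, so cell type, origin and allele cannot be told apart. The growth text of the control libraries names YY1 siRNA, and their titles were followed here. No expression was measured, so neither the cell types nor the knockdown of YY1 could be checked. The labels do not call the 2 libraries of a group separate cultures, and p-values then measure only the spread between libraries.

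Total counts were 11784821 and 14201950 for 2i, 26533530 and 25791222 for serum, 14887963 and 14698138 for NPCs, 5792078 and 6251316 for control siRNA and 4419309 and 12993781 for YY1 siRNA. The Sox2 window held 43398 and 52631 counts in 2i, 77564 and 78438 in serum, 57970 and 52376 in NPCs, 84531 and 83182 with control siRNA and 58236 and 147935 with YY1 siRNA. That was between 1.96% and 3.2% of the counts of the Sox2 locus in each of the 10 libraries. The window was covered by 5 fragments, with forward primers on F151, F153 and F155 and reverse primers on R152 and R154. R154, from 34546432 to 34549386, gave between 77 and 233 counts at 32 kb or more in the untreated libraries and is not in the siRNA primer list, so the profile rests on the other 4 fragments.

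Within a library, the count of each window pair was divided by the count expected for its distance in the Sox2 locus (observed/expected; 1 is the trend). The number and quality of primers differ between windows, so these values compare libraries at one partner and do not rank partners by contact strength. Among partners at 32 kb or more, the window 96 kb downstream (34636880 to 34652879, next to the enhancer window) had the highest value in both ES media, 13.1 and 11.1 in 2i and 5.71 and 4.59 in serum. In NPCs the same partner had 3.50 and 1.94. The highest value in NPCs belonged to the window 432 kb downstream (34972880 to 34988879), with 18.6 and 13.1, and the next by the lower library to a window 208 kb upstream (34332880 to 34348879), with 13.0 and 11.6. In the ES libraries the first of these had between 4.52 and 7.72 and the second between 2.16 and 2.56. By the lower library, the window 432 kb downstream was also second in both ES media.

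**Figure D1:**
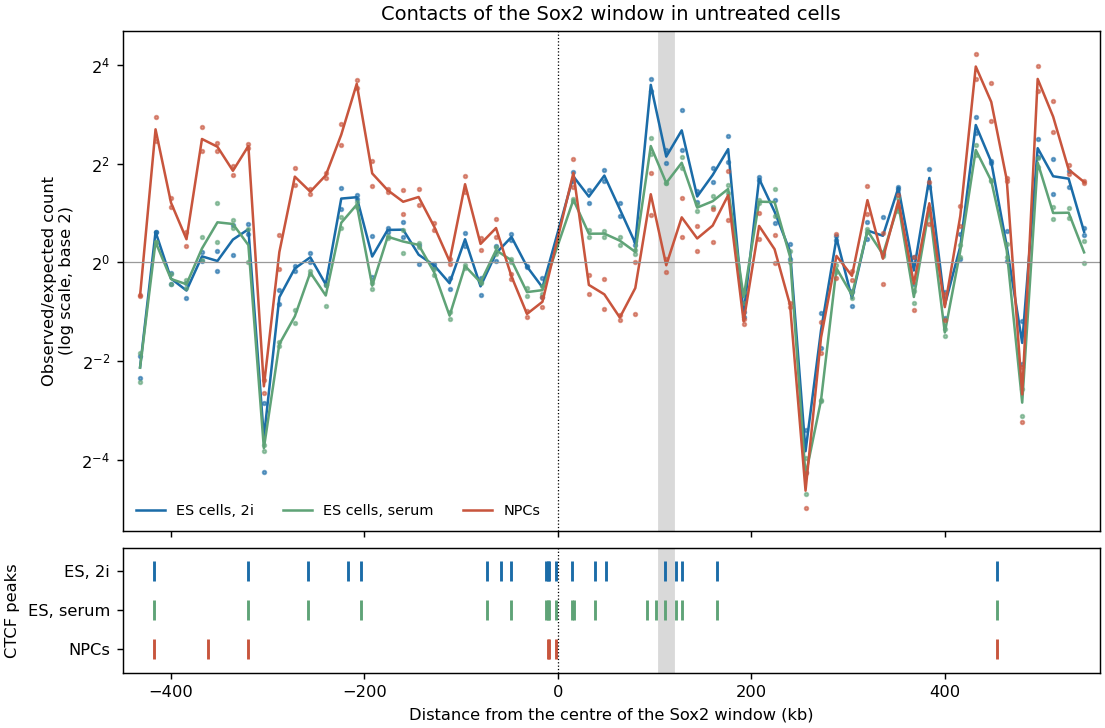
Observed/expected count of the Sox2 window with each 16 kb window of its locus (log axis, base 2) against distance in kb, with the upstream side negative; points are the 2 libraries of a group, lines their geometric mean, the grey band the enhancer window, and ticks below the CTCF peaks of each list. NPCs lie above both ES groups over most of the upstream side and below them from 32 to 128 kb downstream, and the 7 NPC peaks contrast with 20 in each ES list.

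Contacts of Sox2 moved from the downstream to the upstream side in NPCs relative to ES cells in 2i. Of the 61 partner windows, 41 changed (edgeR quasi-likelihood test, Benjamini-Hochberg adjusted p under 0.05), 26 up and 15 down. The background was 17.5% of 15190 window pairs in all loci (8.99% up, 8.46% down) and 29.6% of the 1888 in the Sox2 locus, against 67.2% of the Sox2 window's partners, the second highest share among the 62 windows of the locus (median 27.9%). The median log2 fold change was 0.52 over the partners and 0.05 over the locus. Of 26 partners at 32 kb or more upstream, 20 rose and 2 fell. Of 16 partners up to 256 kb downstream, none rose and 13 fell, and of 18 farther downstream 6 rose and none fell. These distance bands were chosen after the values were seen.

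The upstream partner with the largest rise lay 368 kb away (34172880 to 34188879) and had 182 and 241 counts in 2i, 691 and 553 in serum and 1160 and 987 in NPCs. Its observed/expected values were 1.16 and 1.03 in 2i, 1.42 and 1.04 in serum and 6.70 and 4.76 in NPCs. NPCs lay above every ES library, and the log2 fold change against 2i was 2.40 (SE 0.23, edgeR adjusted p = 9.29e-06). The partner 208 kb upstream had 567 and 756 counts in 2i, 1519 and 1483 in serum and 3345 and 3622 in NPCs, a log2 rise of 2.30 over 2i (SE 0.17, edgeR adjusted p = 1.97e-06). Windows 352, 240 and 416 kb upstream (starting at 34188880, 34300880 and 34124880) rose by 2.30, 2.21 and 2.10 on the log2 scale. All 26 upstream partners at 32 kb or more had observed/expected levels that did not overlap between NPCs and 2i, also the 4 that did not pass, where 56.8% of all pairs tested did not overlap. The 2 that fell were the upstream windows nearest to the gene, 32 and 48 kb away (34508880 and 34492880), by 0.96 and 0.80 on the log2 scale.

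On the downstream side, the partner 48 kb away (34588880 to 34604879) fell most. It had 2739 and 2988 counts in 2i, 2791 and 2572 in serum and 724 and 581 in NPCs. Its observed/expected values were 3.67 and 3.12 in 2i, 1.56 and 1.43 in serum and 0.79 and 0.52 in NPCs. The log2 fold change of NPCs against 2i was -2.38 (SE 0.21, edgeR adjusted p = 4.27e-06). Serum thus lay between 2i and NPCs at this window. Partners 64, 96 and 32 kb downstream (starting at 34604880, 34636880 and 34572880) had log2 fold changes of -2.20, -2.16 and -1.78. The far downstream windows that rose formed a run from 432 to 464 kb and another at 496 and 512 kb, with a single window at 544 kb, and their log2 fold changes lay between 1.01 and 1.41.

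**Figure D2:**
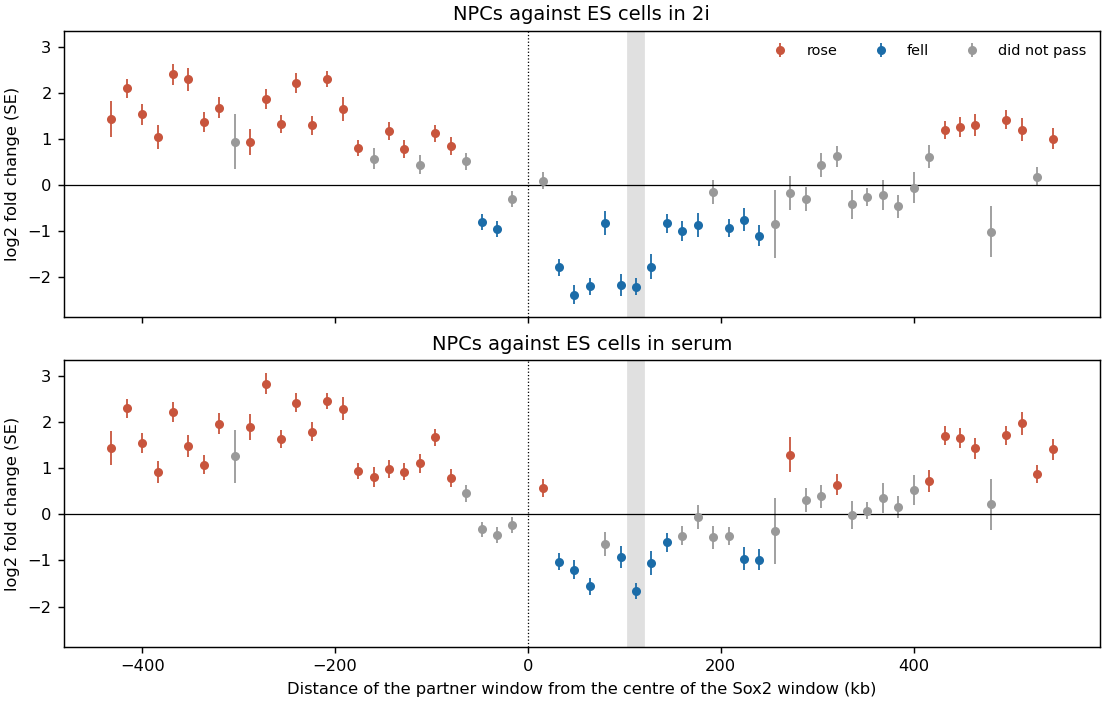
Log2 fold change (with SE) of each partner window of Sox2 in NPCs against ES cells in 2i (top) and in serum (bottom) by distance in kb; colours mark partners that rose, fell or did not pass edgeR's test, and the grey band is the enhancer window. Rises fill the upstream side and the far downstream end, and falls lie from 32 to 240 kb downstream, with 2 more close upstream against 2i.

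Against ES cells in serum, which shares the NPC libraries with the comparison above, 42 of 61 partners changed, 33 up and 9 down (background 28.7% in all loci, 14.2% up and 14.5% down, and 35.3% in the Sox2 locus, against 68.9% here). Of the 26 upstream partners at 32 kb or more, 22 rose and none fell, and of the 16 up to 256 kb downstream 1 rose and 9 fell. The largest rise was at the window 272 kb upstream (34268880 to 34284879), which had 298 and 264 counts in serum, 179 and 237 in 2i and 798 and 752 in NPCs. Its log2 fold change was 2.83 (SE 0.22, edgeR adjusted p = 6.73e-07), with observed/expected values of 3.76 and 2.95 in NPCs and 0.51 and 0.43 in serum. Windows 208, 240, 416 and 192 kb upstream (34332880, 34300880, 34124880 and 34348880) rose by 2.45, 2.42, 2.30 and 2.29. Besides the enhancer window, the largest falls were at 64, 48, 128 and 32 kb downstream (34604880, 34588880, 34668880 and 34572880), with log2 fold changes of -1.56, -1.20, -1.06 and -1.03. The fall at 128 kb did not pass without serum replicate 1 (edgeR adjusted p = 0.0683) or without NPC replicate 2 (0.0705).

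The split of rises and falls depended on how libraries were scaled. Plain TMM scaling leaves in the data the distance trend of each library and its level in each locus. With it the median of the Sox2 locus for NPCs against 2i moved from 0.05 to 0.48 on the log2 scale, and 32 partners rose and 6 fell. Against serum 33 rose and 7 fell, and the fall at 32 kb downstream no longer passed (log2 fold change -0.42, edgeR adjusted p = 0.117). The other falls and all rises named for NPCs against 2i or serum kept their direction and their call under plain TMM scaling. A distance trend fitted per library over all loci together gave 32 rises and 7 falls against 2i, and 34 and 8 against serum. DESeq2 size factors gave 33 and 6 against 2i, and 33 and 7 against serum.

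A measure that needs no scaling between libraries is the ratio of upstream to downstream counts of the same window over matched distances. From 32 to 256 kb on either side, the Sox2 window had 0.338 and 0.391 upstream counts per downstream count in 2i, 0.496 and 0.508 in serum and 1.83 and 2.40 in NPCs. Every ES library had more downstream than upstream counts, and both NPC libraries had the reverse. With 2 libraries a group, a two-sided exact permutation test cannot go below 0.333, so no test was made. Over 32 to 432 kb, the widest range that both sides share, the ratios were 0.357 and 0.411, 0.520 and 0.550, and 1.56 and 2.02. The share of the window's counts at 32 kb or more that lay within 256 kb downstream was 58.2% and 54.4% in 2i, 48.0% and 45.9% in serum and 19.8% and 17.2% in NPCs, and the share beyond 256 kb downstream was 17.4% and 18.8%, 20.8% and 21.8%, and 28.4% and 24.8%.

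The shift was present on each of the 4 well-covered fragments. F151, F153 and F155 carry forward primers and R152 a reverse primer, so R152 reads other partner fragments than the rest. On F151 (34541861 to 34542801) the ratio was 0.509 and 0.596 in 2i, 0.788 and 0.800 in serum and 3.60 and 3.83 in NPCs. On R152 (34542803 to 34542976) it was 0.406 and 0.517, 0.672 and 0.699, and 3.10 and 3.50. On F153 (34542978 to 34546430) it was 0.285 and 0.351, 0.474 and 0.431, and 2.90 and 2.89. F155 (34549388 to 34558024), which covers the downstream part of the window, had lower ratios in every group, 0.281 and 0.308 in 2i, 0.343 and 0.337 in serum and 1.19 and 1.37 in NPCs.

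**Figure D3:**
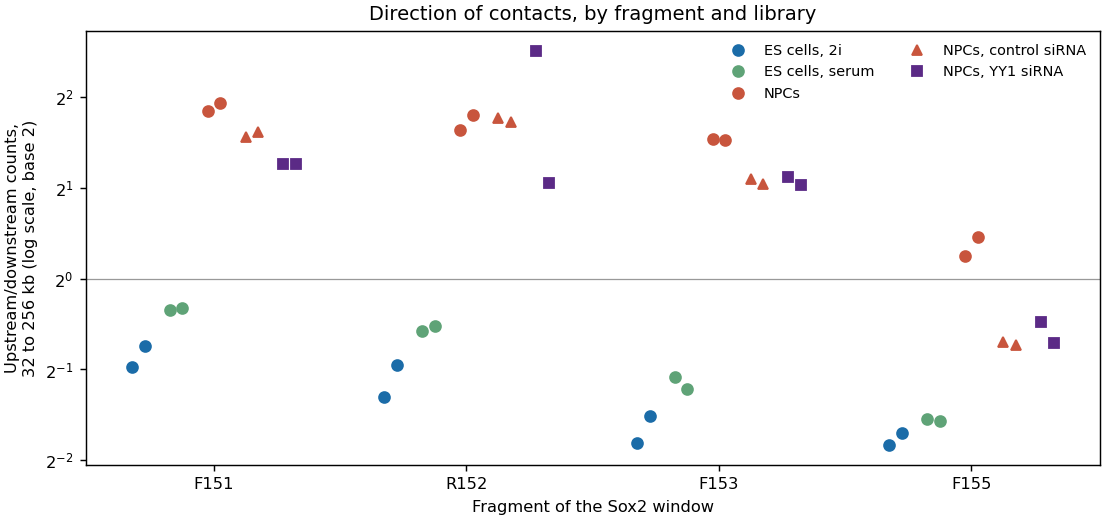
Ratio of upstream to downstream counts from 32 to 256 kb (log axis, base 2; 1 is the grey line) for the 4 well-covered fragments of the Sox2 window, 1 point per library. ES libraries lie below 1 and untreated NPC libraries above 1 on every fragment, and on F155 the siRNA libraries lie below 1.

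The contact with the ES enhancer window, 112 kb downstream (fragments F181 to F183, 34652181 to 34672093), was weaker in NPCs than in both ES groups. It had 1503 and 1716 counts in 2i, 2539 and 2709 in serum and 375 and 390 in NPCs. Observed/expected values were 4.83 and 4.03 in 2i, 3.04 and 3.06 in serum and 1.05 and 0.88 in NPCs. The groups did not overlap, and NPCs were close to the trend for that distance. The log2 fold change was -2.20 against 2i (SE 0.19, 95% interval -2.60 to -1.81, edgeR adjusted p = 3.75e-06) and -1.66 against serum (SE 0.18, interval -2.05 to -1.28, edgeR adjusted p = 1.34e-05). Of the window's counts at 32 kb or more, the enhancer window took 4.32% and 4.03% in 2i, 4.05% and 4.19% in serum and 0.866% and 0.972% in NPCs.

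The fall was not shared by all primer pairs of this contact. F151-R182 had 481 and 399 counts in 2i, 730 and 769 in serum and 36 and 55 in NPCs. F153-R182 had 308 and 554, 646 and 746, and 52 and 95. F183-R152 had 228 and 270, 542 and 390, and 37 and 54. These were the 3 pairs with most counts, and each fell in NPCs against 2i in the fit to single primer pairs, with log2 fold changes of -3.67, -2.84 and -2.78. In that fit 107 of 499 pairs of the Sox2 window changed between NPCs and 2i (background 4.06% of 73287 pairs in all loci), 166 between NPCs and serum (14.7%) and 46 between the ES media (9.65%). F181-R152, whose fragment F181 (34652181 to 34663892) fills most of the enhancer window, went from 307 and 323 counts in 2i and 314 and 432 in serum to 14 and 24 in NPCs, a log2 fold change of -4.41 (SE 0.40, edgeR adjusted p = 1.85e-05).

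F155-R182, which joins the fragment at the downstream end of the Sox2 window to the 754 bp fragment R182 (34663894 to 34664647), had 158 and 156 counts in 2i, 306 and 353 in serum and 236 and 161 in NPCs. Its log2 fold change against 2i was 0.04 (SE 0.37, edgeR adjusted p = 0.966), and it made up 62.9% and 41.3% of the contact in NPCs against 9.09% to 13% in the ES libraries. F155 and F181 both carry forward primers, so their ligation could not be counted. The pairs share fragments and are not independent of each other, and the difference between F155-R182 and the others was not tested.

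**Figure D4:**
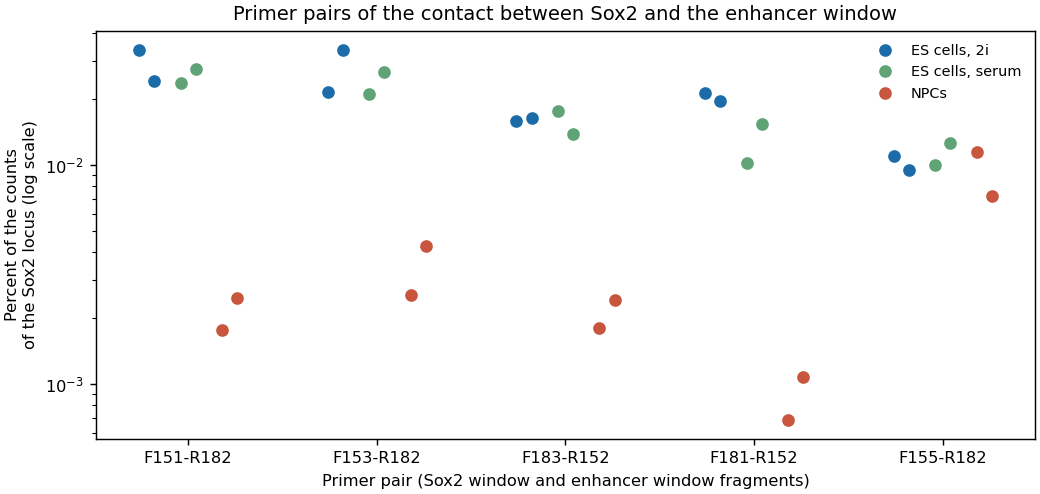
Counts as a percentage of all counts of the Sox2 locus (log axis) for the 5 primer pairs that hold nearly all counts of the contact between the Sox2 and enhancer windows, 1 point per library. NPCs lie below every ES library for 4 pairs, and for F155-R182 the 3 groups lie close together.

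By Pearson correlation of log2 observed/expected values over the 6 untreated libraries, the partners whose pattern was most like that of the enhancer window lay between it and the gene, at 64, 32 and 48 kb downstream (34604880, 34572880 and 34588880; r = 0.991, 0.96 and 0.958). These libraries form 3 groups of 2, so the coefficients mostly describe the order of the groups, and the 4 windows share the fragments of the viewpoint. The window between them at 80 kb (34620880) had r = 0.836, and the one at 96 kb, with the highest ES values, r = 0.918.

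Between the 2 ES media the profile differed less. In serum against 2i, 15 of 61 partners changed, 1 up and 14 down (24.6%, against a background of 21.4% in all loci, 11.5% up and 9.95% down, and 21.6% in the Sox2 locus). The share in both directions together was thus near the background, while the calls lay mostly on the side of falls. Of the 61 log2 fold changes 50 were negative, with a median of -0.38 against 0.02 over the locus. The rise was at 352 kb upstream (34188880), with 143 and 284 counts in 2i and 674 and 1260 in serum, a log2 fold change of 0.82 (SE 0.25, edgeR adjusted p = 0.0286). The largest falls were at 272 kb downstream (34812880), 96 kb downstream (34636880), 48 kb downstream (34588880) and 272 and 288 kb upstream (34268880 and 34252880), with log2 fold changes of -1.47, -1.23, -1.18, -0.96 and -0.96. The enhancer contact had a log2 fold change of -0.54 (SE 0.17, interval -0.91 to -0.17, edgeR adjusted p = 0.0393). Neither count nor call was stable: with plain TMM scaling 2 partners rose and 3 fell, and the enhancer contact had -0.28 (edgeR adjusted p = 0.288). The count was 5 without 2i replicate 1, 4 without serum replicate 1, 1 (the window 48 kb downstream) without serum replicate 2 and 23 without NPC replicate 2, and without any of the first 3 the enhancer contact did not pass (edgeR adjusted p = 0.193 to 0.246).

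CTCF ChIP-seq gave 1 deposited peak list per cell state, so no peak has a replicate. Fold enrichment and -log10 q are the authors' own values. The Sox2 window held 1 peak in each list, in fragment R154, the one with few 5C counts: 34546680 to 34546984 in 2i (fold 18.1, -log10 q 56.5), 34546528 to 34546999 in serum (34.9 and 113) and 34546716 to 34546913 in NPCs (10.3 and 23.5). The enhancer window held 1 peak in each ES list, in fragment F181: 34658831 to 34659205 in 2i (15.5 and 79.4) and 34658843 to 34659228 in serum (28.1 and 89.9). Fragment F183, counted in the enhancer window by its midpoint, reaches past the window's border and also held a peak in each ES list. These lay at 34670983 to 34671267 in 2i (24.6 and 61.1) and 34671052 to 34671305 in serum (13.8 and 30.8). By position they are listed below with the partner 128 kb downstream. The NPC list had no peak in the enhancer window or in F183. That list is shorter throughout, with 28860 peaks against 56138 in 2i and 50185 in serum, and in the Sox2 locus it had 7 peaks against 20 in each ES list, so a missing peak may also be a peak below the calling threshold.

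At 32 kb or more downstream of Sox2, 6 partner windows had a peak in an ES list and none in the NPC list, and all 6 fell in NPCs against 2i while 5 fell against serum. These 6 lay between 32 and 160 kb away, and the windows without a peak in that stretch, at 64, 80 and 144 kb, fell against 2i as well, with log2 fold changes of -2.20, -0.82 and -0.83. Of all 26 downstream partners with no peak in any list, many of them farther away, 5 rose and 7 fell against 2i. Only 1 downstream partner, 448 kb away, had an NPC peak (35002251 to 35002492, fold 29.6, -log10 q 76.4), at a site in all 3 lists. Its contact rose against 2i and serum, with log2 fold changes of 1.26 and 1.65. Upstream, 6 partner windows also had a peak in an ES list and none in the NPC list, and of these 4 rose and 1 fell against 2i. On the upstream side 3 partner windows had an NPC peak, and all 3 rose against 2i and against serum, but so did 13 and 15 of the 17 upstream partners without a peak in any list. The peaks of these 3 windows lay at 34130968 to 34131182, 34186877 to 34187082 and 34227890 to 34228101, and the second, in the partner with the largest rise against 2i, was the only site of the locus in the NPC list alone (fold 13.9, -log10 q 27.3). Among the other named upstream windows, the one at 208 kb had a peak in both ES lists (34345605 to 34345818 in 2i and 34345570 to 34345853 in serum) and none in the NPC list, though its contact rose. The 2 peaks nearest to the window, just upstream of its border, and that at 34546716 were in all 3 lists.

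Further named windows with peaks were few. The partner 32 kb downstream held a peak in both ES lists (34587065 to 34587354 in 2i, 34587062 to 34587307 in serum), that at 48 kb one in 2i (34598811 to 34598982), that at 96 kb 2 in serum (34640622 to 34640846 and 34650578 to 34650750), and that at 128 kb 2 in each ES list (the first at 34670983 to 34671267 in 2i and 34671052 to 34671305 in serum, the second at 34676731 to 34677032 and 34676818 to 34676989). At 416 kb upstream, besides the NPC peak, there was one in 2i (34130870 to 34131125) and one in serum (34130844 to 34131090).

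In the authors' deposited table of looping classes, 107 pixels (pairs of 4 kb bins) with a bin in the Sox2 window carry a class other than background, and 89 of them are in the class for NPCs only. In the whole Sox2 locus that table gives 542 pixels a class other than background, 225 of them the class for NPCs only. By the authors' deposited table, 84 of these 89 pixels lie upstream of Sox2 and 5 downstream, in 15 partner windows, of which the pair at 208 and 192 kb upstream holds 15 pixels each. The class shared by both ES media has 12 pixels at the Sox2 window in the authors' deposited table, all downstream, 10 in the window 96 kb away and 2 in the enhancer window. No label or header gives the rule behind the classes, and they describe the same cell states in the same study, so they are no separate evidence of direction.

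The deposited interaction scores, on a scale that no label or header explains, were averaged over the 16 pixels of the Sox2 and enhancer windows. The means were 43.8 and 38.8 in 2i, 36.5 and 27.2 in serum, and 10.4 and 5.43 in NPCs. Over the 89 pixels of the class for NPCs only, the mean score was 5.68 and 7.28 in 2i, 5.12 and 4.98 in serum and 61.0 and 56.1 in NPCs. These are the cell states that the class name refers to, so the means describe the class and are no support for it.

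YY1 siRNA was compared with control siRNA in NPCs to ask whether contacts depend on YY1. None of 60 partners of Sox2 changed by edgeR's test (background 0% of 3624 window pairs in both loci measured), while 6 had an unadjusted p under 0.05, as did 331 of all pairs. DESeq2 called 1, the window 128 kb upstream (34412880), named here after its values were seen. That partner had 994 and 1231 counts with control siRNA and 363 and 475 with YY1 siRNA, a log2 fold change of -1.56 in edgeR (adjusted p = 0.405). The biological coefficient of variation was 0.381, against 0.201 in the untreated libraries, and the YY1 libraries had 4419309 and 12993781 counts in all. In counts simulated with about that spread, the test recovered 0 of 100 pairs changed by 1 on the log2 scale. Of 99 pairs changed by 2 it recovered 28. The absence of calls therefore does not show that the contacts were unchanged.

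The enhancer contact had 792 and 667 counts with control siRNA and 790 and 1514 with YY1 siRNA. Observed/expected values were 0.78 and 0.62 against 1.11 and 0.67, and the log2 fold change was 0.35 (SE 0.37, interval -0.47 to 1.16, edgeR adjusted p = 0.825). F155-R182 had 453 and 248 counts with control siRNA and 660 and 566 with YY1 siRNA, F151-R182 had 227 and 252 against 126 and 328, and F183-R152 had 56 and 153 against 0 and 545. The libraries differ in depth, so these counts were also taken as shares of the counts of the Sox2 locus. For F151-R182 both YY1 libraries (0.00482% and 0.00435%) lay below both controls (0.00668% and 0.00696%). Its log2 fold change of -0.38 did not pass (SE 0.53, edgeR adjusted p = 0.953). Among all window pairs tested with siRNA, 40.7% did not overlap between the groups. That share is for window sums corrected for distance, another unit and measure than the locus shares of single primer pairs. For F183-R152 the YY1 libraries lay on either side of the controls. Without YY1 siRNA replicate 1 the log2 fold change of the contact was -0.065.

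The partners that had changed in untreated NPCs were also followed. Of the 26 that rose in NPCs against 2i, 20 were lower and 6 higher with YY1 siRNA, with a median log2 fold change of -0.26 against 0.06 over all 3624 pairs. Of the 15 that fell, 8 were lower and 7 higher, with a median of -0.11, and of the other 19 tested 8 were lower and 11 higher, with a median of 0.03. The lowest edgeR adjusted p among the 26 was 0.405. The partner 208 kb upstream had observed/expected values of 6.44 and 4.67 with control siRNA and 3.64 and 3.40 with YY1 siRNA, a log2 fold change of -0.66 (edgeR adjusted p = 0.439). The partner at 368 kb had 2.26 and 3.65 against 1.53 and 1.98, while that at 352 kb had 6.58 and 7.03 against 6.67 and 6.33. The deposited scores of the siRNA libraries were averaged over the 89 pixels of the class for NPCs only. The means were 22.6 and 24.8 with control siRNA and 13.6 and 19.9 with YY1 siRNA, groups that did not overlap. The 32 background pixels of the window did not overlap either, with 2.58 and 2.35 against 2.11 and 1.12, while the other classes overlapped. With 2 libraries a group no exact permutation test can go below 0.333. The ratio of upstream to downstream counts from 32 to 256 kb was 1.33 and 1.25 with control siRNA and 1.26 and 1.01 with YY1 siRNA, which overlap.

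**Figure D5:**
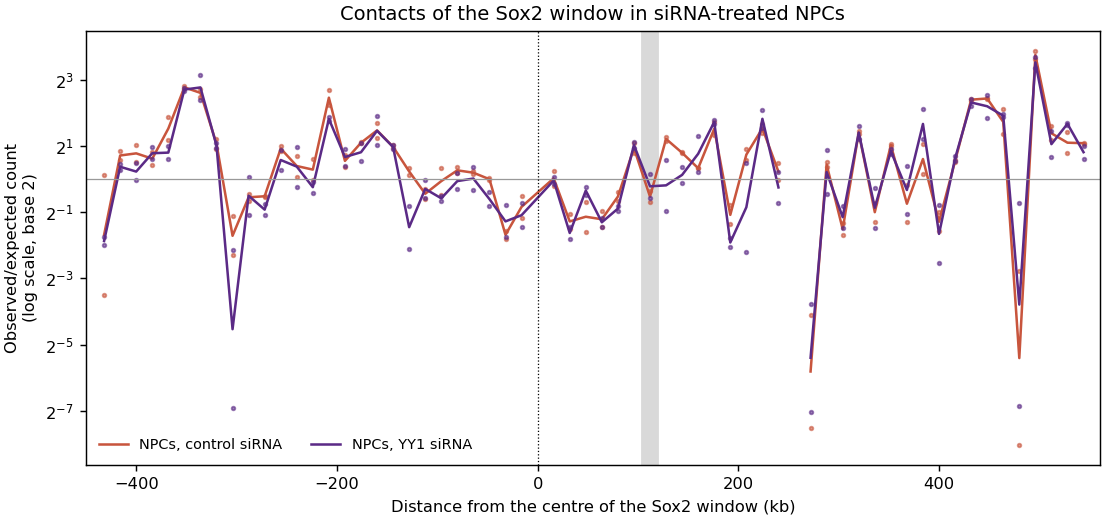
Observed/expected count of the Sox2 window with each 16 kb window of its locus (log axis, base 2) in siRNA-treated NPCs against distance in kb, with points for the 2 libraries of a group, lines for their geometric mean and a grey band for the enhancer window. No partner passed edgeR's test. The 2 groups did not overlap at 20 of 60 partners (33.3%, against 40.7% of all pairs tested).

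Control siRNA NPCs were a separate experiment from the untreated NPCs, with another plating density and protocol, and their values are set side by side without a test. On the 4 fragments that both primer lists hold, the enhancer contact was at 1.05 and 0.87 observed/expected in untreated NPCs and 0.78 and 0.62 with control siRNA, both under the 3.04 to 4.76 of the ES libraries. The partner at 208 kb upstream was at 12.9 and 11.5 in untreated NPCs and 6.44 and 4.67 with control siRNA. The partner at 352 kb upstream was at 4.75 and 5.37 and then 6.58 and 7.03, beside 0.882 to 2.296 in the ES libraries. That at 496 kb downstream was at 15.57 and 11.01 and then 14.57 and 12.34, beside 3.82 to 5.65 in ES cells. The partner at 368 kb upstream, with 2.26 and 3.65 under control siRNA, also lay above every ES library. Some other partners that were high in untreated NPCs were at or near the ES levels with control siRNA. That at 416 kb upstream was at 7.64 and 5.47 in untreated NPCs and 1.48 and 1.81 with control siRNA, beside 1.33 to 1.54 in the ES libraries. The window 272 kb upstream, with the largest rise against serum, was at 3.75 and 2.95 and then 0.703 and 0.691, beside 0.425 to 0.955 in ES cells. The window 432 kb downstream, the highest in untreated NPCs, was at 18.63 and 13.05 and then 5.14 and 5.38, beside 4.51 to 7.72 in ES cells. F155 had more downstream than upstream counts in the siRNA libraries, with ratios of 0.617 and 0.601 for control siRNA and 0.717 and 0.612 for YY1 siRNA, whereas F151 had 2.95 and 3.07, and 2.41 and 2.39.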

How the data were processed

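5C libraries were deposited by the authors as raw counts per primer pair, aligned with Bowtie to mm9 per the submitters' processing notes. The authors' CTCF peak lists from MACS2 give fold enrichment (a ratio) and -log10 q per peak, and the deposited tables of 4 kb pixels give an interaction score. No label or header says how scores were computed. Of the deposited tables, 51 other columns of single libraries were not used.

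Counts of forward-reverse primer pairs within a locus were summed over 16 kb windows by fragment midpoint. Pairs within a window were dropped. Per library and locus, the log of the count (with 0.5 added) was smoothed against distance by loess at span 0.5, and the curve was the offset in edgeR 4.0.16 (R 4.3.3), whose quasi-likelihood test was run over all window pairs with Benjamini-Hochberg adjustment. Untreated libraries entered 1 fit and siRNA libraries another. DESeq2 1.42.0, other scalings, filters and spans, single primer pairs, a replicate block and leaving out each library were alternatives. The alternative without fragment R154 was chosen after seeing the data. Scripts were tested on simulated data.

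The text names the enhancer window, then up to 5 rises and 5 falls per comparison at 32 kb or more that passed the test, did not overlap between groups and had at least 20 counts in the higher group, then the 3 partners most like the enhancer window, and CTCF peaks in those windows. The members and lists were chosen with earlier results of these data known. Replicate libraries differed by more than sampling noise (chi-square per degree of freedom 16.8 to 95.4). Deviations of same-numbered libraries correlated by 0.0232 to 0.0887, and the main fit did not pair them. With 2 libraries a group, these low values cannot show whether same-numbered libraries were prepared together. Inputs of the ChIP-seq were not analysed here. Counting error is only part of the spread, since PCR reads are not independent molecules.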

Additional observations from a re-analysis of the deposited data

Results flagged for a closer look

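Counts that join the Sox2 window to fragments of the other loci were used in no comparison. They made up between 10.2% (2i replicate 1, 4913 counts) and 18.3% (serum replicate 1, 17387 counts) in the untreated libraries, as a share of all counts of the window with these included. The NPC libraries had 13% and 12.9%. The siRNA files list no such counts for the window.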

How the results depend on the processing

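The enhancer contact kept its direction and call in all 18 alternatives for NPCs against 2i (log2 fold change -2.34 to -1.70, edgeR or DESeq2 adjusted p up to 0.000135) and in all 18 against serum (-1.80 to -1.36, up to 0.000786). Leaving out 1 library gave -2.34 to -2.07 and -1.80 to -1.53. For serum against 2i it ended with plain TMM scaling (-0.28), a distance trend common to the loci (-0.31) and DESeq2 size factors (-0.27), and leaving out 1 library gave -0.66 to -0.40. For YY1 siRNA it reversed without the primer pair with most counts (-0.26), and leaving out 1 library gave -0.065 to 0.67, the reversal being that without YY1 siRNA replicate 1 (-0.065). No call was made for it under any alternative.

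The count of changed partners lay between 31 and 41 for NPCs against 2i and between 30 and 42 against serum when 1 library was left out. For serum against 2i the range was 1 to 23, and the count was 5 with plain TMM scaling, 6 with the common trend (3 up, 3 down), 5 with DESeq2 size factors and 23 with only the libraries of those groups. For single primer pairs, of 499 tested, the counts were 107, 166 and 46 in the 3 untreated comparisons, other units than windows. For YY1 siRNA, DESeq2 called 1, and 1 passed without YY1 siRNA replicate 2 (the range when leaving out 1 library was 0 to 1), the window 128 kb downstream (34668880). With the replicate block, the counts were 43, 47, 23 and 1 (again 34668880) and the enhancer contact had -2.20, -1.67, -0.53 and 0.31, with no change of call for that contact. Of the values of other named partners under the alternatives, 384 of 408 kept direction and call, 24 no longer passed and 0 reversed, 20 of the 24 in serum against 2i. Requiring -log10 q of at least 20, or 50% of a peak inside the window, left the number of CTCF peaks at the Sox2 and enhancer windows as it was.

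Limits: 2 libraries a group, 1 CTCF list per state, few counts on R154 and no pairs of fragments with the same primer orientation. The cause of the changes under other scalings was not tested.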
